A study of Mus musculus with 5 samples.

Results

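The small RNAs of the mouse zygote were compared with those of the unfertilized oocyte, the pair of libraries on either side of fertilization. These were 2 of the 5 libraries of the series, chosen by their labels and with all 4 of their deposited tables: microRNAs (miRNAs), piRNAs, small nucleolar RNAs (snoRNAs) and small interfering RNAs that the cell makes itself (endo-siRNAs). The oocyte library was made from 15210 metaphase II oocytes of C57BL/6 females, and the zygote library from 15416 zygotes taken 15 to 18 hours after fertilization from females of that strain, with DBA/6J males as fathers. Zygotes therefore carried a paternal genome of another strain, and this cannot be told apart from the stage. All females were 4 to 5 weeks old and had received 5 IU of the gonadotropin PMSG and, after 48 hours, 5 IU of HCG. In both preparations hyaluronidase was used against the cumulus cells and acidic Tyrode solution against the zona pellucida, per the labels' protocols. Each library pooled the cells of many animals and there was 1 library per stage. No difference below has a replicate check, and no p-value was computed.

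A fully grown oocyte transcribes little of its genome, and the early embryo begins with the RNA that the oocyte stored. The small RNAs of the stored pool differ in how they are made. miRNAs are cut from hairpins by Drosha and Dicer, Dicer makes endo-siRNAs by cutting long double-stranded RNA, and piRNAs are made without Dicer and bind PIWI proteins. Mouse oocytes are known for abundant endo-siRNAs and for miRNAs that repress their targets weakly. snoRNAs guide chemical changes of ribosomal and spliceosomal RNA, and reads of 18 to 32 nucleotides on them are from fragments of longer molecules or from small RNAs derived from them.

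Levels are given per 1000000 reads of the entry's own class in its library (RPM). An entry, meaning 1 named small RNA of a table, was measured when it had at least 100 reads over both libraries. This held for 299 of 1316 miRNA names, 99 of 186 snoRNA names, 4170 of 196406 piRNA names and 33179 of 212905 endo-siRNA names listed in any of the 5 libraries. Log2 ratios are zygote over oocyte with 0.5 reads added to each side, so positive values are higher in the zygote. Sums over a named list include its members under that minimum, unless they are said to cover measured members. Brackets hold the 95% interval of a ratio of 2 read counts, which covers counting error only and says nothing of the spread between preparations. Precursor positions are from the GENCODE vM21 annotation of GRCm38.p6.

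The mature sequences of the miRNAs on which the comparison turns are shown first, so that their seeds and close relatives can be compared. They are RefSeq sequences on GRCm38.p6, printed 5′ to 3′, and capitals mark the seed, bases 2 to 8, which largely sets the targets of a miRNA. Of the 299 measured miRNAs, 260 matched a RefSeq sequence. The first set holds miRNAs with higher levels in the zygote, each followed by the measured miRNAs that share its seed or, for miR-30e-5p, by its nearest relative.
miR-410-3p: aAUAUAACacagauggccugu
miR-3473b: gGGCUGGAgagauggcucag
miR-3473e: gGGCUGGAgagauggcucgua
miR-215-5p: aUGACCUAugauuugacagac
miR-192-5p: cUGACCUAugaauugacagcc
miR-29b-3p: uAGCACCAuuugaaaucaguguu
miR-29a-3p: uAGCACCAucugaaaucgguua
miR-31-5p: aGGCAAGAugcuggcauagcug
miR-291a-3p: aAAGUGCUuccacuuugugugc
miR-294-3p: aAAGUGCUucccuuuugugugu
miR-295-3p: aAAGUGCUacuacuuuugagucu
miR-141-3p: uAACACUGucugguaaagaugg
miR-200a-3p: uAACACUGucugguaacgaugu
miR-32-5p: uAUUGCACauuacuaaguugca
miR-25-3p: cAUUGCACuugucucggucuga
miR-92a-3p: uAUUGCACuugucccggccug
miR-92b-3p: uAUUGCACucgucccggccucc
miR-30e-5p: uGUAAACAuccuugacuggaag
miR-30a-5p: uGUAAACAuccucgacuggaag

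The second set holds miRNAs with lower levels in the zygote, with both members of the pairs that share a seed.
miR-147-5p: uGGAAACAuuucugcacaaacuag
miR-34b-3p: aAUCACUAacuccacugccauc
miR-34c-3p: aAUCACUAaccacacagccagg
miR-10a-5p: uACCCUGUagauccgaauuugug
miR-10b-5p: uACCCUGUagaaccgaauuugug
miR-202-5p: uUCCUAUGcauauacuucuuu

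The third set holds the 3 miRNAs with the most reads over the pair.
miR-182-5p: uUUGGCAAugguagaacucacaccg
miR-3471: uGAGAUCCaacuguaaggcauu
let-7f-5p: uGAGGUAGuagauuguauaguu

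The composition by class differed between the libraries. Of 43266969 reads over the 4 oocyte tables, 60.0% were listed as endo-siRNAs, 33.5% as piRNAs, 4.65% as miRNAs and 1.79% as snoRNAs. Of 43260042 zygote reads the shares were 71.1% endo-siRNAs, 22.1% piRNAs, 5.38% miRNAs and 1.43% snoRNAs. piRNA reads were thus 14513316 in the oocyte and 9552106 in the zygote, while endo-siRNA reads were 25968584 and 30760735. miRNA reads were 2010462 and 2327081, and snoRNA reads were 774607 and 620120. Counting error on these shares was small beside the differences: the 95% interval of the miRNA share was 4.64% to 4.65% in the oocyte and 5.37% to 5.39% in the zygote. The spread between preparations is not known. Fewer cells of a type and less RNA per cell cannot be told apart in such pooled samples.

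Because classes gained or lost share, the ratio of an entry depends on what its reads are scaled to. Such a choice moves every ratio of a class by 1 amount and leaves the distances between entries as they are. Scaling to all 4 classes together moved log2 ratios by +0.21 for miRNAs, -0.34 for snoRNAs, -0.60 for piRNAs and +0.24 for endo-siRNAs. With the authors' deposited factor, 0.937 in the oocyte and 1.37 in the zygote, they moved by +0.75, +0.20, -0.06 and +0.79. The medians over measured entries, from which members are described below, were -0.01 for miRNAs, 0.22 for snoRNAs, 0.50 for piRNAs and -0.01 for endo-siRNAs.

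Most measured miRNAs were at similar levels in both stages. Of 299 measured miRNAs, which held 99.7% of oocyte and 99.8% of zygote miRNA reads, 87.0% were within 2-fold. At least 2-fold higher in the zygote were 21 (7.02%), and at least 2-fold lower 18 (6.02%). Of these, 6 (2.01%) were higher by 4-fold or more and 4 (1.34%) lower by as much. On other scales the numbers past 2-fold were 91 higher against 6 lower (deposited factor), 29 against 10 (all 4 classes) and 22 against 11 (DESeq2 size factors). The 21 higher miRNAs held 3.08% of oocyte and 8.20% of zygote miRNA reads. The 18 lower ones held 1.46% and 0.607%. Names seen in 1 of the libraries alone had few reads: 91 in the oocyte with at most 19 reads each, and 123 in the zygote with at most 27. A count of 0 allows up to 1.49 RPM in the oocyte and 1.29 RPM in the zygote.

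**Figure D1:**
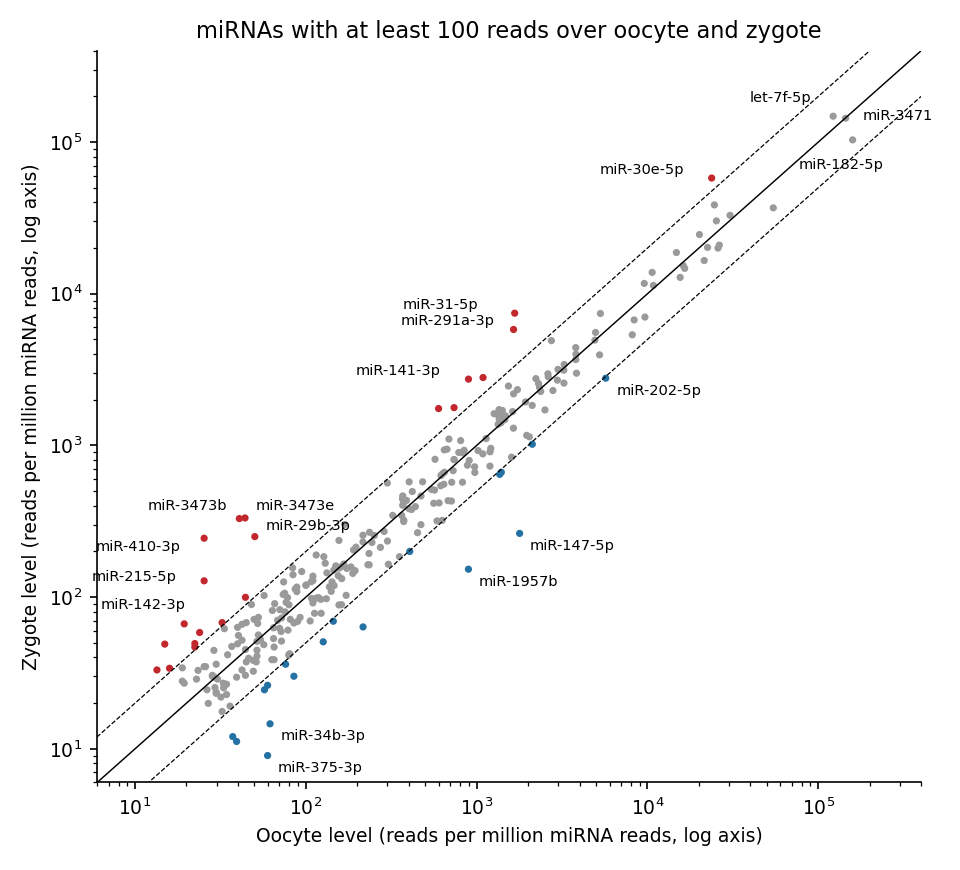
Level of each of 299 measured miRNAs in the oocyte (x axis) and the zygote (y axis), in RPM on log axes; the solid line marks equal levels, dashed lines 2-fold, red points the 21 that were 2-fold or more higher and blue points the 18 that were 2-fold or more lower in the zygote. Most points lie between the dashed lines, and among the miRNAs with the most reads miR-30e-5p lies above them.

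The 3 miRNAs with the most reads were the same in both libraries, in another order. The 5 leading miRNAs held 51.1% of oocyte and 49.2% of zygote miRNA reads. miR-182-5p, of the cluster of the miR-183, miR-96 and miR-182 hairpins, led the oocyte library with 158891 RPM and had 103381 RPM in the zygote, where it came after let-7f-5p and miR-3471. let-7f-5p, of a family known as a brake on growth and pluripotency genes, had 122192 RPM in the oocyte and led the zygote library with 148063 RPM. miR-3471, annotated on chromosome 4 outside other genes, was second in both with 144586 and 143649 RPM. miR-21a-5p was at 54509 and 36834 RPM. The largest gain in RPM of any miRNA was that of miR-30e-5p, at 23756 RPM in the oocyte and 57915 RPM in the zygote (2.44-fold higher [2.41 to 2.46]). It is annotated at chr4:120772606-120772697 on the minus strand, in an intron of Nfyc. Its relative miR-30a-5p, which differs from it by 1 base (C13U, counted from the 5′ end, miR-30a-5p first), was at 24645 and 38515 RPM, a ratio of 1.56.

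Among the miRNAs with the largest ratios, low counts and high counts both occurred. miR-410-3p had 51 oocyte and 569 zygote reads, 25.4 and 244.5 RPM, the highest ratio of the class at 9.64-fold [7.23 to 13.1]. Its hairpin lies at chr12:109743715-109743795 on the plus strand, in an exon of Mirg, inside the imprinted Dlk1-Dio3 region, and its 5p arm had 2 reads and 0. The other measured members of that region did not share this ratio. Of 24 measured there, 12 lay above and 12 below the class median, with a list median of -0.03, and the next highest was miR-136-5p at 2.10-fold higher (32.3 to 67.9 RPM). The lowest ratio of the 24 was that of miR-329-3p, at 39.3 RPM in the oocyte and 11.2 RPM in the zygote. miR-434-3p (450.6 and 266.0 RPM) and miR-541-5p (1600 and 837 RPM) were lower by less than 2-fold.

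miR-31-5p combined a high ratio with a high count. It had 3356 oocyte and 17329 zygote reads, 1669 and 7447 RPM, and was 4.46-fold higher [4.30 to 4.63]. Its hairpin is at chr4:88910557-88910662 on the minus strand, in an exon of AL805899.1. The 3p arm of the same hairpin was at 52.7 and 73.5 RPM, a ratio of 1.39. miR-193a-3p, from chr11:79711969-79712034, was at 14.9 RPM in the oocyte and 49.0 RPM in the zygote (3.28-fold higher [2.18 to 5.09]).

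miR-3473b and miR-3473e have nearly the same sequence, with the substitutions A19G and G20U (positions in miR-3473b, its base first), and reads could be split between them. They were at 40.8 and 44.02 RPM in the oocyte and 329.5 and 332.5 RPM in the zygote. Together they had 84.8 RPM and 661.9 RPM, a ratio of 7.81, the highest ratio of sums among miRNAs that share a seed. They lie at chr10:41670739-41670793, outside other annotated genes on that strand, and at chr5:31667231-31667340 in an intron of Rbks. Both belong to a list of 8 measured miRNAs whose hairpins resemble repeats. In that list miR-1957b was at 895 RPM in the oocyte and 153 RPM in the zygote (5.86-fold lower [5.22 to 6.57]). The other 5, miR-3471 among them, had log2 ratios from -0.05 to 0.89. Of the 8, 6 lay above the class median and 2 below it, and together they had 152016 RPM in the oocyte and 151397 RPM in the zygote.

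miRNAs that share a seed did not always share a ratio. Among the 260 with a sequence, 97 fell into 35 groups of 2 or more with 1 seed. In 8 groups the members spanned more than 1 on the log2 scale, and in most groups they spanned less. The examples that follow are from those 8. miR-29b-3p, with 101 and 583 reads, was 4.99-fold higher in the zygote [4.03 to 6.22], while miR-29a-3p was at 322.3 and 345.9 RPM, a ratio of 1.07. The substitutions from miR-29a-3p to miR-29b-3p are C10U, G18A, U21G and A22U, all outside the seed, and the first copy of miR-29b lies beside miR-29a on chromosome 6. miR-215-5p was at 25.4 and 128.1 RPM (5.05-fold higher [3.74 to 6.93]), and miR-192-5p at 786 and 899 RPM, a ratio of 1.14. miR-141-3p was at 895 and 2736 RPM (3.06-fold higher [2.90 to 3.22]), and miR-200a-3p, which differs from it by A17C and G22U, at 162.2 and 159.2 RPM. miR-32-5p was at 598 and 1750 RPM (2.93-fold higher [2.74 to 3.12]), while of the other 3 with its seed miR-25-3p was at 570.5 and 810 RPM, miR-92a-3p at 5241 and 3953 RPM and miR-92b-3p at 35.98 and 19.1 RPM. Read as sums over a seed, 5 of the 35 groups differed by at least 2-fold: those of miR-3473b and miR-3473e, of miR-141-3p and miR-200a-3p (1057 to 2895 RPM), of miR-291a-3p, miR-294-3p and miR-295-3p, of miR-10a-5p and miR-10b-5p, and of miR-34b-3p and miR-34c-3p.

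The miR-290 cluster encodes the dominant miRNAs of early embryos and embryonic stem cells, and its AAGUGCU seed is known for promoting the cell cycle there. Its 12 measured members had 5686 RPM together in the oocyte and 10586 RPM in the zygote, a ratio of 1.86 [1.82 to 1.90]. Most of that difference was 1 miRNA. miR-291a-3p, from chr7:3218919-3219000, had 3305 oocyte and 13530 zygote reads, 1644 and 5814 RPM, and was 3.54-fold higher [3.40 to 3.67]. miR-295-3p was at 1265 and 1619 RPM, miR-294-3p at 670 and 944 RPM and miR-293-3p at 299.9 and 565.1 RPM. miR-292-3p was at 544 and 512 RPM, and miR-290a-5p at 172.1 and 102.7 RPM. Of the 6 measured 3p arms 5 lay above the class median, with a median of 0.42, and of the 6 measured 5p arms 4 lay below it, with a median of -0.19 (0.56 with the deposited factor). The seed sum of miR-291a-3p, miR-294-3p and miR-295-3p was 3579 and 8377 RPM.

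In the miR-30 family, whose guide arms carry the GUAAACA seed, the arms also differed. The 5 measured 5p arms had a median of 0.43 and all lay above the class median, and the 4 measured 3p arms had a median of -0.32 (0.44 with the deposited factor) and all lay below it. miR-30b-5p was at 1732 and 2332 RPM, miR-30c-5p at 20152 and 24552 RPM and miR-30d-5p at 14772 and 18699 RPM. The 3p arms of miR-30a and miR-30e were at 1197 and 908 RPM and at 3840 and 2993 RPM. Together the 9 measured members held 90604 RPM in the oocyte and 146368 RPM in the zygote. A like gap occurred in the let-7 family. Its 9 measured 5p arms had a median of 0.16, with 7 above the class median. Its 5 measured 3p arms had a median of -0.52 (0.23 with the deposited factor), with 0 above the class median. Of these 3p arms, let-7a-1-3p and let-7c-2-3p have the same sequence and are not separate observations. No let-7 member differed by 2-fold on the class scale, and the family sum was 208628 and 241889 RPM. The difference of medians between arms was 0.74 in the miR-30 family, 0.69 in the let-7 family and 0.62, in favour of the 3p arms, in the miR-290 cluster. These distances do not depend on the scaling.

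**Figure D2:**
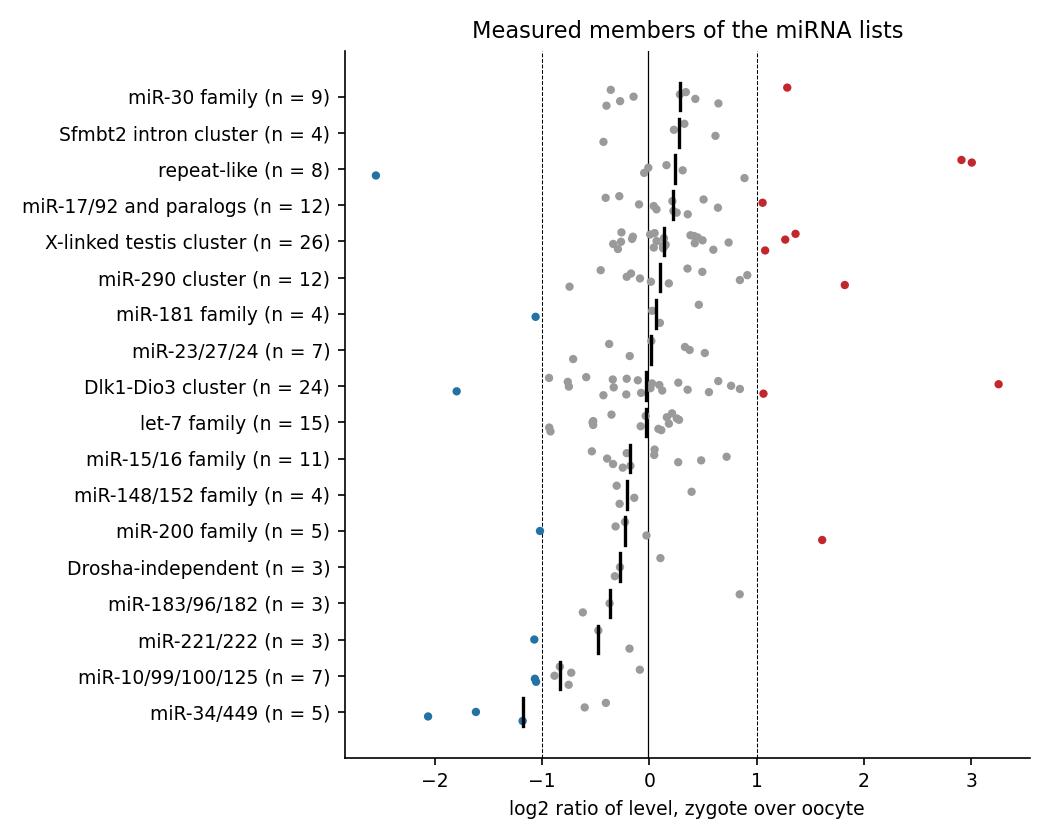
Log2 ratio, zygote over oocyte, of every measured member (points) of the miRNA lists with at least 3 measured members; short bars mark list medians, the solid line the median of all measured miRNAs, dashed lines 2-fold, and red and blue points members past 2-fold. The lists named after miR-34, miR-10 and miR-221 lie wholly to the left of the class median, and single members such as miR-410-3p stand far from their lists.

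Over 53 hairpins with both arms measured, the arms did not move together. The 3p arms of miR-465a, miR-465b and miR-465c, which are among them, have the same sequence. On the class scale the arms had ratios of the same sign in 29 hairpins, a number that depends on the scaling. Spearman's rho across hairpins, which does not depend on it, was -0.09, a description over entries that share both libraries. In 5 hairpins (9.43%) the 5p arm gained at least 2-fold on the 3p arm: miR-31, miR-30e, miR-434, miR-30a and miR-34c. For 6 (11.3%) the 3p arm gained at least 2-fold: miR-193a, miR-291a, miR-743a, miR-9, miR-486 and miR-293. miR-30e had 47760.5 reads on its 5p arm and 7721 on its 3p arm in the oocyte, and 134772 and 6966 in the zygote. miR-291a had 474 reads on 5p and 3305 on 3p in the oocyte, and 622.5 and 13530 in the zygote. miR-743a, from the X-linked testis cluster, was at 155 RPM on 5p and 737 RPM on 3p in the oocyte, and at 138 and 1774 RPM in the zygote.

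The arm with more reads in the oocyte was the one that gained in 25 of these hairpins and the one that lost in 28. A change of the leading arm itself was rare, and occurred in 3 hairpins. miR-193a was at 44.3 RPM on 5p and 14.9 RPM on 3p in the oocyte, and at 30.5 and 49.0 RPM in the zygote. For miR-463 the counts were 326 and 314 in the oocyte and 308 and 550 in the zygote. For miR-376b they were 114.5 and 128 in the oocyte and 238.5 and 190 in the zygote. These are low counts, and the leading arms of the last 2 were close to equal in the oocyte. At a minimum of 20 reads on each arm 17 hairpins gained on 5p and 15 on 3p, and at 1000 reads 2 and 1.

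**Figure D3:**
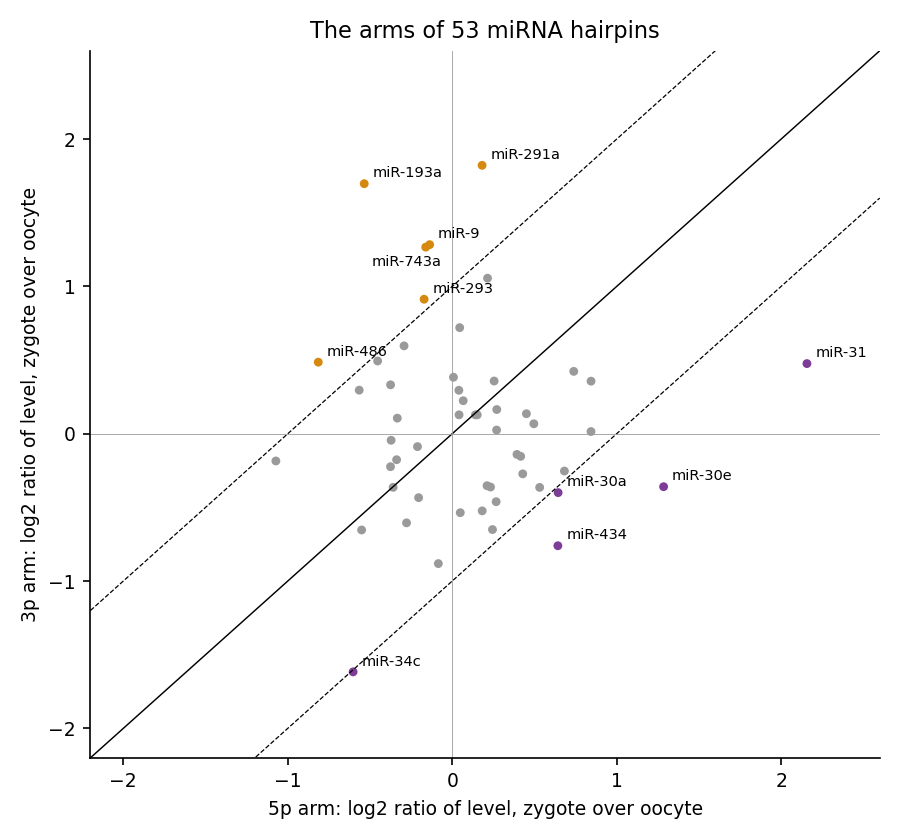
Log2 ratio, zygote over oocyte, of the 5p arm (x axis) and the 3p arm (y axis) of 53 hairpins with at least 100 reads on each arm over the pair; the solid line marks equal ratios and dashed lines a 2-fold gain of 1 arm over the other. The 5 purple points gained on 5p, with miR-31 and miR-30e farthest, and the 6 orange points gained on 3p, with miR-193a and miR-291a farthest.

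For sequence features that played no part in the choice of entries, group medians ran from -0.16 to 0.34. Of the 260 with a sequence, 20 were at least 2-fold higher and 15 lower. miRNAs whose first base is G, a minority of 24, had a median of 0.34, with 4 higher and 0 lower. miR-3473b and miR-3473e, between which reads could be split, are among those higher. For the 63 that begin with A the median was 0.01, with 9 higher and 6 lower. The 32 that begin with C had a median of -0.16, with 1 higher and 0 lower, and the rest, with U, a median of -0.01, with 6 higher and 9 lower. By GC content the medians were 0.11 below 40% (71 miRNAs), 0.01 from 40% to 50% (112) and -0.15 at 50% or more (77).

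Lower miRNAs in the zygote were led by miR-147-5p. It had 3587 oocyte and 612 zygote reads, 1784 and 263 RPM, and was 6.78-fold lower [6.23 to 7.40]. Its hairpin is at chr2:122640803-122640881 on the plus strand, in an exon of AA467197, and its 3p arm was listed at 0 in both libraries. miR-375-3p, known from pancreatic islets and other secretory cells, had 120 reads and 21 (6.61-fold lower [4.14 to 11.1]). miR-204-5p, in an intron of Trpm3, was at 85.1 and 30.1 RPM, and miR-135a-5p at 126.3 and 50.7 RPM.

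The family of miR-34 and miR-449, known from multiciliated epithelium and from spermatozoa, was lower on the class scale. All 5 measured members lay below the class median, with a median of -1.18 that stayed below 0 under every scaling tried, up to -0.43 with the deposited factor. miR-34c-5p, with most of the family's reads, was at 8144 RPM in the oocyte and 5363 RPM in the zygote, a log2 ratio of -0.60. The deposited factor moves miRNA ratios by +0.75, so on that scale miR-34c-5p was not lower. miR-34b-3p was at 61.7 and 14.6 RPM (4.22-fold lower [2.87 to 6.37]), miR-34c-3p at 37.3 and 12.03 RPM and miR-34a-5p at 59.7 and 26.2 RPM. miR-449a-5p was at 39.3 and 29.7 RPM. The 2 hairpins of miR-34b and miR-34c lie together at chr9:51103034-51103645. The list held 236142 RPM in spermatozoa, against 8355 RPM in the oocyte and 5461 RPM in the zygote.

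miR-10, miR-99, miR-100 and miR-125, whose genes lie in or near Hox clusters or beside let-7 genes, also lay below the class median in every measured member. The 7 members had a median of -0.83, which the deposited factor moved to -0.08. miR-10a-5p was at 2116 and 1018 RPM (2.08-fold lower [1.98 to 2.19]) and miR-10b-5p, which differs from it by U12A, at 1394 and 665 RPM (2.10-fold lower [1.97 to 2.23]). They come from chr11:96317165-96317274 and, in an intron of Hoxd3 and Hoxd4, from chr2:74726070-74726137. Both came under 2-fold with DESeq2 size factors, with all 4 classes as the scale and with the deposited factor. miR-99b-5p was at 2033 and 1140 RPM, miR-100-5p at 1962 and 1165 RPM, miR-125a-5p at 304 and 165 RPM and miR-125b-5p at 712 and 430 RPM. miR-99a-5p was nearly level, at 243.7 and 229.3 RPM. On chromosome 17 the hairpins of let-7e, miR-125a and miR-99b lie together in Spaca6, and their 5p arms had log2 ratios of -0.53, -0.88 and -0.83. The sum of the list was 8794 RPM in the oocyte and 4836 RPM in the zygote.

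Other families differed within themselves. In the cluster of miR-183, miR-96 and miR-182, miR-182-5p (1.54-fold lower) and miR-183-5p (25873 and 20008 RPM) lay below the class median, while miR-96-5p was at 2737 and 4909 RPM, 1.79-fold higher [1.74 to 1.85]. The miR-200 family had miR-141-3p higher, miR-200b-3p lower (406 and 200 RPM) and miR-200c-3p, the most abundant, at 8355 and 6718 RPM. miR-200c and miR-141 lie next to each other on chromosome 6. In the miR-181 family, miR-181b-5p was at 144.7 and 69.3 RPM and miR-181a-5p, from the same hairpin clusters, at 215.9 and 231.2 RPM. miR-200b-3p and miR-181b-5p were 2-fold lower on the class scale and came under it on the same 3 scales as miR-10a-5p. The X-linked testis cluster is a fast-evolving group known from spermatogenesis. Of its 26 measured miRNAs, 20 lay above the class median. At least 2-fold higher were 3: miR-880-3p (1090 and 2804 RPM), miR-743a-3p (737 and 1774 RPM) and miR-201-3p (15.9 and 33.9 RPM). Over all 299 measured miRNAs, 21 (7.02%) were at least 2-fold higher. miR-465a-3p, miR-465b-3p and miR-465c-3p of the cluster have the same sequence and are not separate observations. The median of the 26 was 0.13, close to that of the class.

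In the list of miR-221 and miR-222 the 3 measured members also lay below the class median, with a median of -0.48 (0.28 with the deposited factor). Several further lists had no member past 2-fold on the class scale. They were the miR-15/16 family (11 measured, median -0.18), the miR-148 family (4, -0.21), the miR-23/27/24 miRNAs (7, 0.02), the Sfmbt2 intron cluster (4, 0.28) and the Drosha-independent miRNAs (3, -0.27), which are made by splicing or from capped transcripts. The miR-17/92 cluster and its paralogs had 9 of 12 above the class median and 1 at least 2-fold higher, miR-20a-3p (22.4 and 46.8 RPM), the minor arm of a hairpin whose 5p arm was at 3803 and 4413 RPM. miR-16-5p, of the miR-15/16 family, was at 5302 and 7412 RPM, and miR-24-3p at 10651 and 13823 RPM.

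Markers of other cells that an egg preparation could hold were read the same way, and their part in the results above was not tested. For gonadal soma, which includes cumulus cells, 4 of 10 listed miRNAs were measured, with sums of 6300 and 3188 RPM and a median of -0.73 (0.02 with the deposited factor). miR-202-5p, known from the gonads, carried most of it, at 5698 and 2775 RPM (2.05-fold lower [1.99 to 2.12], and under 2-fold on those 3 scales). miR-132-3p, which luteinizing hormone induces in granulosa cells, was at 353 and 185 RPM. miR-503-5p of the same list was nearly level, at 145.7 and 150.8 RPM, and miR-503-3p was at 31.8 and 21.9 RPM. Ciliated epithelium is marked by miR-34b, miR-34c and miR-449, with 4 of 8 measured and sums of 8295 and 5435 RPM, so it overlaps the family described above. For smooth muscle and fibroblasts 4 of 10 were measured, with sums of 26711 and 21090 RPM, led by miR-143-3p at 26338 and 20925 RPM. miR-199a-3p and miR-199b-3p, which are among them, have the same sequence. miR-145a-5p, made from the same transcript as miR-143, was at 216.1 and 63.6 RPM (3.40-fold lower [2.81 to 4.12]). The 2 endothelial arms of miR-126a summed to 138.8 and 96.7 RPM.

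For erythroid cells 4 of 5 markers were measured, with sums of 428.3 and 330.5 RPM. Secretory epithelium had 6 of 14 measured and sums of 10119 and 10051 RPM, with miR-141-3p and miR-200b-3p in opposite directions. For leukocytes 3 of 9 were measured, with sums of 1515 and 1752 RPM. miR-142-3p was at 19.4 and 66.6 RPM (3.43-fold higher [2.40 to 5.01]) and its 5p arm was listed at 0 in both libraries. For neurons 4 of 10 were measured (1118 and 1215 RPM), and for muscle 2 of 6 (520 and 508 RPM). The liver marker had 3 and 4 reads. Several marker lists had medians below that of the class, from -0.23 to -1.11. Members below it were 3 of 4 for gonadal soma, 4 of 4 for smooth muscle and 2 of 2 for endothelium. They were 3 of 4 for erythroid cells, 5 of 6 for secretory epithelium and 4 of 4 for ciliated epithelium. The leukocyte median was 0.26, with 3 of 3 members above that of the class. For neurons the median was 0.19, with 2 members above and 2 below, and for muscle 0.01, with 1 and 1. The miR-290 cluster, expressed in early embryos, had 5701 and 10598 RPM, against 65.8 RPM in spermatozoa, 1692 RPM in spermatogonia and 42592 RPM in primordial germ cells, so it does not set the egg libraries apart.

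Fragments of snoRNAs were dominated by 1 entry in both stages. SNORD60 took 79.1% of oocyte and 76.3% of zygote snoRNA reads, followed by SNORD63 with 5.64% and 5.92%, the small Cajal body RNA scaRNA6 with 2.54% and 3.70%, SNORD35 with 2.34% and 1.63% and SNORD21 with 1.44% and 2.52%. Of 99 measured entries, 83.8% were within 2-fold. At least 2-fold higher in the zygote were 10 (10.1%) and lower 6 (6.06%), with 1 (1.01%) past 4-fold on the higher and 1 (1.01%) on the lower side. With all 4 classes as the scale the split at 2-fold was 7 higher and 9 lower. With TMM factors, DESeq2 size factors or totals without the top 5 entries it was 8 and 7 in each case, and with the deposited factor 17 and 5.

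The 2 structural classes of snoRNA had different medians. C/D box snoRNAs guide 2′-O-methylation and H/ACA box snoRNAs pseudouridylation. Of 17 measured H/ACA entries, 13 lay above the class median, 6 were at least 2-fold higher and 1 lower, and their median of 0.75 stayed between 0.41 and 0.95 under the scalings tried. Of 73 measured C/D entries, 3 were higher and 5 lower, with a median of 0.12 that ranged from -0.22 to 0.32. The medians differed by 0.63, a distance that no scaling changes. The H/ACA entries summed to 11068 RPM in the oocyte and 16538 RPM in the zygote, a ratio of 1.49 [1.45 to 1.54]. Of that sum SNORA7 held 5647 and 8712 RPM. Past 2-fold were SNORA25 (50.2 and 174.1 RPM, 3.46-fold higher [2.35 to 5.12]), SNORA46 (41.3 and 120.0 RPM), SNORA51, SNORA41 (433.5 and 990.4 RPM), SNORA55 and SNORA68. The last 2 came under 2-fold with TMM factors, with DESeq2 size factors, without the top 5 entries and with all 4 classes as the scale, and SNORA41 with the last of these. SNORA6, listed in 1 entry with SNORA62, went the other way, with 408 reads in the oocyte and 55.3 in the zygote (5.82-fold lower [4.41 to 7.91]).

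**Figure D4:**
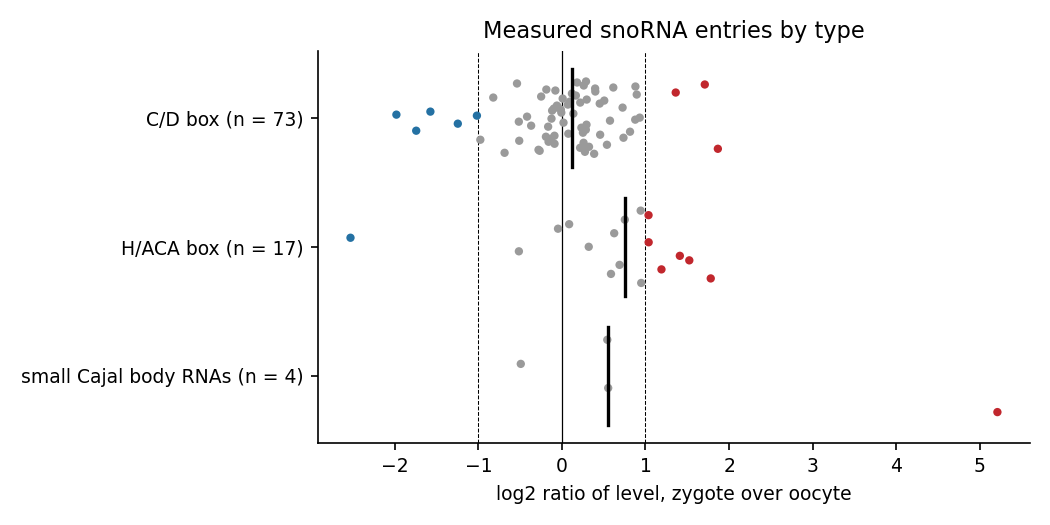
Log2 ratio, zygote over oocyte, of measured C/D box (73), H/ACA box (17) and small Cajal body (4) entries of the snoRNA tables; points are entries, short bars medians, dashed lines 2-fold, red points higher and blue points lower in the zygote. The H/ACA median lies to the right of the C/D median, SNORA6/SNORA62 is the H/ACA point farthest left, and scaRNA20 is the point farthest right of all.

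The highest ratio of the class was that of scaRNA20, a guide that resides in Cajal bodies, with 4 reads in the oocyte and 131 in the zygote (41.5-fold higher [15.8 to 154.6]). The other 3 measured small Cajal body RNAs were scaRNA6 (1.46-fold higher), scaRNA25 (92.03 and 135.2 RPM) and scaRNA18 (877.6 and 623.6 RPM). Among C/D entries, SNORD69 was at 143.4 and 524.2 RPM (3.66-fold higher [2.91 to 4.57]) and SNORD111 at 188.7 and 618.6 RPM (3.28-fold higher [2.68 to 3.99]). Lower were SNORD24 (1100 and 328 RPM, 3.35-fold [2.87 to 3.94]), SNORD52 (884 and 296 RPM), SNORD47 (123 and 30.4 RPM) and SNORD32 (1761 and 741.9 RPM).

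snoRNAs of 1 host gene did not share a ratio. The introns of Gas5 hold SNORD47, which was 4.03-fold lower, SNORD75 (255.6 and 175.8 RPM), SNORD78 (1.16-fold higher), SNORD79 (502 and 537 RPM) and SNORD81 (759 and 1078 RPM). SNORD47 is not among those past 4-fold because its log2 ratio with the added reads is -1.98. Of the Rpl13a snoRNAs, SNORD32 was 2.37-fold lower, SNORD35 was 1.43-fold lower and SNORD33 was at 132.5 and 134.1 RPM.

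piRNA entries differed more than those of any other class. Of 4170 measured entries, with 97.4% and 96.8% of the reads, 56.3% were within 2-fold. At least 2-fold higher in the zygote were 1177 (28.2%) and lower 646 (15.5%), with 215 (5.16%) past 4-fold on the higher and 208 (4.99%) on the lower side. The direction of the majority depended on the scale. With all 4 classes as the scale 428 were higher and 1186 lower, with DESeq2 size factors 455 and 1143, with the TMM factor 828 and 820, with totals without the top 5 entries 1001 and 731, and with the deposited factor 1082 and 690. The width of the distribution does not depend on it. The middle 90% of log2 ratios ran from -1.997 to 2.02 for piRNAs, against -1.06 to 1.27 for miRNAs, -1.04 to 1.42 for snoRNAs and -0.81 to 1.03 for endo-siRNAs.

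Entries of the piRNA tables carry names of several kinds, whose meaning the labels do not give, and the kinds differed. The 2438 measured entries with names that begin with PIR had a median of 0.86, and 997 (40.9%) were at least 2-fold higher and 179 (7.34%) lower. The 1697 with names that begin with mmur had a median of -0.42, with 179 (10.5%) higher and 467 (27.5%) lower. The medians were 1.28 apart, and that of the PIR names stayed above 0 and that of the mmur names below 0 under each scaling tried. With all 4 classes as the scale they were 0.25 and -1.03. PIR names held 53.4% of oocyte and 60.9% of zygote piRNA reads. The 35 measured entries marked chrM had a median of 0.51, and -0.10 with all 4 classes as the scale.

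The most abundant piRNA entries went in both directions, and not always in that of their kind of name. PIR75142 had 896317 oocyte and 293937 zygote reads, 6.18% and 3.08% of the class. The neighbouring names mmur001134777 and mmur001134778 had nearly equal reads, 507479 and 507645 in the oocyte and 162935 and 162978 in the zygote. The files do not say whether they share reads. PIR232912 went the other way, with 369515 and 558892 reads (2.55% and 5.85%), and PIR235614 had 188763 and 321614 reads (1.30% and 3.37%). With all 4 classes as the scale PIR232912 and PIR235614 were 0.60 and 0.77 higher on the log2 scale, under 2-fold.

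Some piRNA entries were nearly absent from 1 of the libraries. PIR40128 had 0 reads in the oocyte and 102 in the zygote, at least 51.7-fold higher against the 3 reads that a count of 0 allows. PIR76348 and PIR76349 had identical reads, 1.25 and 327.85, and count as 1 observation (398.5-fold higher [88.8 to 19743]). PIR77836 had 239.5 reads in the oocyte and 0 in the zygote, at least 52.5-fold lower. PIR243807 had 742.75 and 0.67 reads and PIR32909 603.64 and 1.67 reads. Entries found in 1 library alone numbered 18433 for the oocyte and 24700 for the zygote. The 66307 entries found in both held 99.8% of oocyte and 99.6% of zygote piRNA reads.

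Ratios ran together among neighbouring names. In 27 blocks of at least 10 measured piRNA entries with name numbers no more than 20 apart, which held 373 entries, the block median was at least 2-fold higher in 2 and lower in 9. On the class scale every entry was above a ratio of 1 in 9 blocks and below it in 11. The block from mmur001134721 to mmur001134787 had 35 entries, 2013285 and 646351 reads, with 24 at least 2-fold lower and 0 higher. The block from mmur000451373 to mmur000451399 had 11768 and 3649 reads and a median of -2.74. The block from mmur000553773 to mmur000553795 had 14950 and 66548 reads, a median of 2.10 and 9 of 14 entries at least 2-fold higher. The files do not say whether names with neighbouring numbers are neighbours in the genome, and entries of a block can share reads, so a block counts as 1 observation.

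Endo-siRNA entries, the largest class, had the narrowest range of ratios. Of 33179 measured entries, with 96.1% and 95.9% of the reads, 91.4% were within 2-fold on the class scale. The rank correlation of their levels between the libraries was 0.89, a description over entries, against 0.95 for miRNAs, 0.91 for snoRNAs and 0.69 for piRNAs. At least 2-fold higher in the zygote were 1796 (5.41%) and lower 1055 (3.18%), and 243 (0.732%) and 204 (0.615%) were past 4-fold. On other scales the numbers past 2-fold were 10367 higher against 260 lower (deposited factor), 3047 against 648 (all 4 classes) and 1637 against 1161 (TMM factor). The distribution over entries was alike too: the 5 leading entries held 25.9% of oocyte and 25.8% of zygote reads.

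The leading endo-siRNA entry, mmur001272954, had 16.1% of the oocyte class and 17.4% of the zygote class. The next were mmur001273859 (3.39% and 2.91%) and mmur001273858 (3.22% and 2.83%). Among 585 entries with 10000 reads or more over both libraries the median was -0.11, with 5.13% past 2-fold on the higher and 0.171% on the lower side. Among the 26678 with 100 to 1000 reads the shares were 5.76% and 3.76%. On the class scale, abundant entries past 2-fold were therefore nearly all on the higher side. These shares count entries, and entries with neighbouring names can share reads, so they are not separate observations.

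The endo-siRNA entries that differed most were rare ones. mmur001454203 had 3.25 reads in the oocyte and 310 in the zygote (80.5-fold higher [29.6 to 425.3]), mmur000201777 had 9.40 and 641.9 reads and mmur001325977 31.5 and 670.0 reads. mmur000060516 was at 4.39 RPM in the oocyte with 0 reads in the zygote, at least 45.0-fold lower. mmur000829418 and mmur000695899 had 532.5 and 532.0 reads in the oocyte and 16.7 each in the zygote, and the files do not say whether they share reads.

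On the class scale, the blocks of neighbouring endo-siRNA names past 2-fold were mostly higher in the zygote. Those wholly on 1 side of a ratio of 1 were more often lower. Both counts depend on the scale, since all 4 classes as the scale move every endo-siRNA ratio by +0.24 and the deposited factor by +0.79. Of 581 blocks with 12932 entries, 15 had a median past 2-fold on the higher side and 1 on the lower. By contrast, every entry was above a ratio of 1 in 37 blocks and below it in 64. The block from mmur000458154 to mmur000458169 had 625 and 6542 reads, with 10 of 11 entries at least 2-fold higher. The block from mmur000220546 to mmur000220614 had 103928 and 451062 reads, with 50 of 54 entries higher and 0 lower. The block from mmur001190384 to mmur001190545 had 25318 and 65204 reads, with 89 of 129 entries higher. The block from mmur001104194 to mmur001104289 was the lower one, with 62175 and 49033 reads, a median of -1.33 and 27 of 49 entries at least 2-fold lower. The names give no source genes or repeats for these entries.

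**Figure D5:**
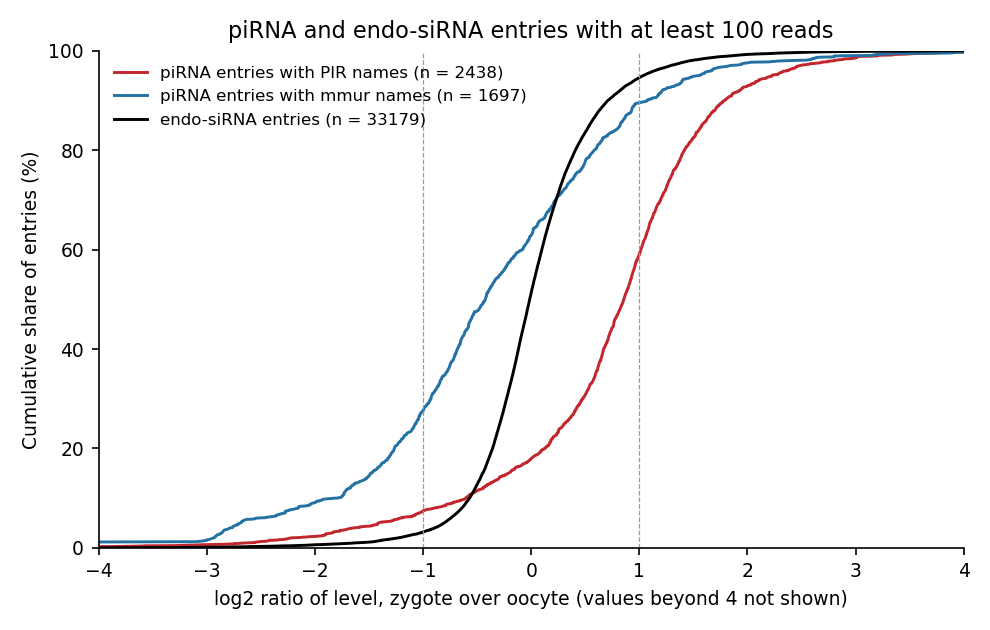
Cumulative share of entries (y axis, percent) by log2 ratio, zygote over oocyte (x axis), for 2438 measured piRNA entries with PIR names, 1697 with mmur names and 33179 measured endo-siRNA entries; dashed lines mark 2-fold and ratios beyond 4 are not shown. The endo-siRNA curve is steep around 0, the PIR curve lies to the right with a median of 0.86 and the mmur curve to the left with a median of -0.42.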

How the data were processed

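Small RNA libraries came from TRIzol extracts, were read by Illumina sequencing and were limited to lengths of 18 to 32 nucleotides, per the labels' protocols. The tools listed are Bowtie 0.12.7 and DESeq, with mm10 as the genome, per the submitters' processing notes, which give no roles. How reads that match several entries were divided is not given in the sources used here. The deposited read columns are expected counts, since many values are not whole: 13.1% and 15.3% of miRNA values in oocyte and zygote, 40.1% and 39.9% of snoRNA, 82.7% and 81.8% of piRNA and 84.9% and 84.7% of endo-siRNA values. The deposited miRNA column of the spermatogonia library holds whole-number counts and enters only the level of the miR-290 cluster. The deposited normalised column is a signal equal to reads times 1 factor per library, called TMM per the file headers. It was tried as another scaling.

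A small RNA missing from a table was taken as 0. Depth per class and library is given with the class shares. In the snoRNA class 6 entries that name no single snoRNA were left out of totals and 186 were used; class shares include them. Shares have exact (Clopper-Pearson) 95% intervals. Intervals of ratios are exact for a pair of Poisson counts given their total, on rounded reads. Copies made by PCR are not separate molecules, so only counting error is covered. Where a library had 0 reads, 3 counts in that library were put in their place to give a lower bound. Every column belonged to a labelled sample, and samples were grouped by title. The single comparison was zygote with oocyte, with no test. Ratios and their intervals were tested on simulated Poisson counts with known totals. The numbers past 2-fold and the choice of scaling were not tested in this way.

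Members and lists were chosen with earlier results of these data known. A rule named the 10 highest and the 10 lowest miRNA ratios, the 10 miRNAs with the most reads in either library, 5 snoRNAs and 3 piRNA and endo-siRNA entries of each kind, the hairpins with the largest change of arm ratio, and list members. Other names (miR-32-5p, miR-92b-3p, miR-192-5p, miR-378c and name blocks) were picked after their values were seen. Mature sequences are from RefSeq and precursor positions from GENCODE vM21, both GRCm38.p6. Alternatives were 5 other scalings (all 4 classes, edgeR 4.0.16 TMM, DESeq2 1.42.0 size factors, totals without the top 5 entries, the deposited factor), minimums of 20, 1 and 1000 reads, a pseudocount of 5, and runs of piRNA and endo-siRNA entries within 10% of their neighbour counted once. Python 3.11.15, pandas 2.3.3, scipy 1.17.1 and R 4.3.3 were used.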

Additional observations from a re-analysis of the deposited data

Results flagged for a closer look

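The snoRNA tables hold 6 entries that name no single snoRNA and enter no comparison of single snoRNAs above, though the class shares include their reads. They took 3.21% of the table's reads in the oocyte and 4.59% in the zygote, above the limit that a count of 0 allows, and so were looked at again. The entry named only as a small nucleolar RNA had 1.41% and 2.44% of the reads, the entry named only as a C/D box snoRNA 1.64% and 1.996%, and the entry named only as an H/ACA box snoRNA 0.0557% and 0.0593%. Which snoRNAs these reads come from is not given in the files, so they were not assigned.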

How the results depend on the processing

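No paired analysis was possible because each group had 1 library, and for the same reason no replicate could be left out. No entry past 2-fold changed direction with a pseudocount of 5. Under another scaling none could, since the largest shift was 0.79 and these entries start at 1 on the log2 scale. Of the 39 miRNAs past 2-fold, 7 came under it with DESeq2 size factors (miR-10a-5p, miR-10b-5p, miR-181b-5p, miR-200b-3p, miR-202-5p, miR-221-5p and miR-378c). With all 4 classes as the scale miR-34a-5p joined them, 8 in all, and with the deposited factor also miR-34c-3p, miR-135a-5p, miR-204-5p and miR-6238, 12 in all. With the TMM factor it was miR-200b-3p alone, with a pseudocount of 5 miR-20a-3p and miR-201-3p, and without the top 5 entries 0. Of the 16 snoRNAs, SNORA55 and SNORA68 came under 2-fold under each scaling but the deposited factor, SNORA41 with all 4 classes as the scale, and SNORD46 with the deposited factor or a pseudocount of 5. PIR232912 and PIR235614 came under it with all 4 classes as the scale and with DESeq2 size factors, and PIR232912 with the TMM factor too. Depth limits the ratios of entries near 100 reads, and without a second library the spread between preparations was not measured.

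A minimum of 20, 1 or 1000 reads changes which entries are measured, so its calls are given as percentages of them, in the order 2-fold higher, 2-fold lower, 4-fold higher and 4-fold lower. At 20 reads they were 11.3%, 9.57%, 4.04% and 2.77% of 470 miRNAs (53 and 45 past 2-fold) and 8.37%, 5.64%, 1.46% and 1.13% of 69893 endo-siRNA entries (5847 and 3943 past 2-fold). The numbers past 2-fold were then 20 and 10 for snoRNAs and 3607 and 2209 for piRNAs, at percentages within 1.5 times those at 100 reads. At 1 read they were 24.4%, 21.7%, 16.4% and 13.2% of 835 miRNAs, 16.4%, 10.2%, 5.08% and 3.39% of 177 snoRNAs and 18.97%, 14.4%, 8.17% and 6.39% of 146296 endo-siRNA entries, and 21.6% of 70730 piRNA entries were 4-fold higher. At 1000 reads 0.704% of 142 miRNAs were 4-fold higher. Of 35 snoRNAs 0% were at least 2-fold higher and 0% were 4-fold lower. Of 926 piRNA entries 3.24% were 4-fold higher and 2.70% 4-fold lower, and of 6501 endo-siRNA entries 0.815% were 2-fold and 0.138% 4-fold lower. Hairpins that gained 2-fold on 5p and on 3p were 17 and 15 at 20 reads and 2 and 1 at 1000 reads. For hairpins these are counts without shares, and the number measured changes with the minimum.

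With the deposited factor the numbers past 2-fold and then 4-fold, higher before lower, were 91, 6, 16 and 1 for miRNAs and 10367, 260, 1166 and 54 for endo-siRNAs, and for snoRNAs 17 were 2-fold and 2 were 4-fold higher. With all 4 classes as the scale they were 428, 1186, 91 and 403 for piRNAs. On that scale 3047 endo-siRNA entries were 2-fold higher, 648 lower and 392 4-fold higher, 10 miRNAs were 2-fold lower and 3 snoRNAs 4-fold lower. With DESeq2 size factors they were 455, 1143, 98 and 381 for piRNAs, 11 miRNAs were 2-fold lower, and 2 snoRNAs were 4-fold lower, as they were with the TMM factor (2) and without the top 5 entries (2). These scalings move every ratio of a class by 1 amount.

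Class shares in oocyte and zygote without the top 5 entries of each class were 62.3% and 72.5% for endo-siRNAs, 34.6% and 24.05% for piRNAs, with 2.87% and 3.25% for miRNAs and 0.222% and 0.190% for snoRNAs. With runs of near-equal neighbours counted once they were 64.3% and 72.9%, 27.2% and 18.5%, 6.14% and 6.83% and then 2.37% and 1.82%, in the same order.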
